A study of Mus musculus with 21 samples.

Results

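The UDP-glucuronosyltransferases (UGT), sulfotransferases (SULT) and glutathione S-transferases (GST) of mouse liver were followed through 21 RNA-seq libraries. Members were the protein-coding genes whose symbols fall in the Ugt1a, Ugt2a, Ugt2b and Ugt3a families, the Sult families, or the alpha, mu, pi, theta, kappa and omega Gst families. This gave 63 of the 55145 genes listed in the deposited tables, with 21 in each class. All 63 were in the hepatocyte and CCl4 tables, and 57 were in the TAA table, with 20 UGT, 16 SULT and 21 GST. The rule reads only gene symbols and biotypes.

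The libraries fell into 7 groups of 3. Wild-type primary mouse hepatocytes were given LPS, a bacterial lipopolysaccharide, at 1 µg/mL for 6 h and nigericin, an ionophore that activates the NLRP3 inflammasome, at 10 µM for 30 min. A second group of these cells also received the NLRP3 inhibitor MCC950 at 10 µM from 2 h before. Whole liver came from wild-type mice injected intraperitoneally with oil, from wild-type mice injected with the hepatotoxin carbon tetrachloride (CCl4), and from CCl4-injected mice labelled Sting knockout. The labels give 6 weeks of oil or CCl4, where the design text gives 8 weeks. The last 2 groups were whole liver after 8 weeks of the hepatotoxin thioacetamide (TAA), taken from wild types and from animals with hepatocyte-specific Nlrp3 deletion. All 6 livers of the TAA table had received TAA and all 6 hepatocyte libraries had received LPS and nigericin. No unstimulated hepatocytes, TAA-free livers or Sting knockout livers given oil were among the libraries analysed here. The Sting allele, the Cre line behind the Nlrp3 deletion and the age and sex of the mice are not given in the sources used here. The labels do not state whether each replicate is its own mouse or culture, and the tests therefore speak of library-to-library spread, which may be technical.

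These enzymes carry out phase II of drug and hormone metabolism, in which a polar group is attached to a lipophilic compound so that it can leave the cell in bile or blood. UGTs take glucuronic acid from UDP-glucuronic acid and work in the endoplasmic reticulum, SULTs take sulfate from the donor PAPS in the cytosol, and GSTs join glutathione to electrophiles, mostly in the cytosol. Hepatocytes are the main site of all 3 reactions, and bilirubin, bile acids, steroids, thyroid hormone and lipid peroxidation products are among the natural substrates. The transcription factor HNF1 is known to act at several Ugt and Sult promoters, and NRF2, the regulator of the oxidative stress response, at several Gst promoters through the antioxidant response element.

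The 9 Ugt1a genes are 1 locus on chromosome 1 (mm10), where each member has its own exon 1 and all join the same exons 2 to 5. Exon 2 lies at 88215044 to 88215175, exon 3 at 88215795 to 88215882, exon 4 at 88216138 to 88216357, and exon 5 of Ugt1a1 at 88218127 to 88218997. The shared part is 737 coding bases, which is 45.9% of the Ugt1a1 coding sequence. Exon 5 of Ugt1a7c runs on to 88220002, past the end in every other member. A read from the shared part fits every member, so the split of the locus between members rests on reads from exon 1 and, for Ugt1a7c, also on the end of its exon 5. The junction is printed for the members whose values differ most in the results, with the last 30 bases of exon 1 in lower case and the 30 coding bases that follow from exon 2 in capitals:
Ugt1a1: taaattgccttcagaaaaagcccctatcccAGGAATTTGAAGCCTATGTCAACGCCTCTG
Ugt1a9: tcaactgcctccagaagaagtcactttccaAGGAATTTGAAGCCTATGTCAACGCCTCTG
Ugt1a5: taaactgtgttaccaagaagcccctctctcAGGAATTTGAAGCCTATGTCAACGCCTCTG
Ugt1a6a: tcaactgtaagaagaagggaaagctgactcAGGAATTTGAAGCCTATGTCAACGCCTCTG
Ugt1a6b: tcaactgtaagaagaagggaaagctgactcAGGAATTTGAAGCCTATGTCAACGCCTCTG
Ugt1a6a and Ugt1a6b were the same over this whole stretch, and their coding sequences were 98.4% identical. Other close pairs were Gstp1 and Gstp2 (98.1%), Gsta1 and Gsta2 (97.6%) and Ugt2b5 and Ugt2b38 (97.0%). The sources used here do not give how the authors' counting divided reads between such copies, so the split within each pair is uncertain.

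RefSeq promoter windows (GRCm38.p6, 250 bases before the start to 50 after it) were found for 55 of the 63 members. The HNF1 motif, searched on both strands, was in 8 of the 55, or 14.5%, against 0.399% of all 32851 promoters. Its holders were Ugt1a1, Ugt1a9, Ugt1a10, Sult1d1, Sult2a3, Sult2a4, Sult2a5 and Sult2a6. Several of these are near copies, with coding sequences 95.3% identical in Ugt1a9 and Ugt1a10 and 94.4% in Sult2a3 and Sult2a4. The antioxidant response element core TGACNNNGC, searched likewise, was in Gsta3, Gstm5 and Gstm7, 5.45% of members against 12.4% of all promoters. The xenobiotic response element core GCGTG was in 11 members, 20.0% against 32.4% of all promoters. These shares count each member once, though some members have more than 1 window. Counted by window, the HNF1 motif was in 8, the antioxidant core in 3 and the xenobiotic core in 13 of 65. The 250 bases before the start are printed for Ugt1a1 (chr1:88211709-88211958, plus strand) and Ugt1a9 (chr1:88070529-88070778, plus strand), because these members share their last exons and differed in the CCl4 comparison. They are printed for Gsta3 (chr1:21240335-21240584, plus strand) as the most abundant holder of the antioxidant core. Capitals mark the HNF1 motif in the Ugt1a windows, there on the opposite strand, and the antioxidant core in Gsta3:
Ugt1a1: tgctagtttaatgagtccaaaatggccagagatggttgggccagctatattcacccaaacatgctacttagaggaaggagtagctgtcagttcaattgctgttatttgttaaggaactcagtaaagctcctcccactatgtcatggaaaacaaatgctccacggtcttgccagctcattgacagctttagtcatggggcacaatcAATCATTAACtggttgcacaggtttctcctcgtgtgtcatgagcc
Ugt1a9: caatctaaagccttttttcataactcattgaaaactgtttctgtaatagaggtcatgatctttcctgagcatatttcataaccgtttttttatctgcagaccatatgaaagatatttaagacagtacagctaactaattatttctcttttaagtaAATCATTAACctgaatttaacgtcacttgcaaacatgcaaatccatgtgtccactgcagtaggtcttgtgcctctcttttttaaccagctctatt
Gsta3: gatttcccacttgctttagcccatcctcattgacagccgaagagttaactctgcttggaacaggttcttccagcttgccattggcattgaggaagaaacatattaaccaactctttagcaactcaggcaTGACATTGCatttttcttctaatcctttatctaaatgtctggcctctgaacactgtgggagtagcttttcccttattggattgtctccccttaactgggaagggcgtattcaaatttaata
The motif began 45 bases before the start of Ugt1a1, 95 before that of Ugt1a9 and 121 before that of Gsta3. These matches describe the letters of the windows only.

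Some facts of the libraries bear on the results. Depth was 14353483 to 16684832 reads per CCl4-table library, 14883710 to 17157586 per hepatocyte library and 32096879 to 68913793 counts per TAA library. The RNA of Sting1 (listed as Tmem173) was at 6.10, 5.15 and 4.74 FPKM in wild-type CCl4 livers and at 3.42, 1.98 and 5.28 FPKM in those labelled Sting knockout, which overlap (exact two-sided permutation p = 0.3, smallest possible 0.1). The RNA level thus does not set these libraries apart, and since the allele is not given it cannot settle the label. Their sample codes begin with SWT, letters that the sources used here do not explain, so the codes do not settle it either. The wording "libraries labelled Sting knockout" is used below for that reason. Nlrp3 RNA in whole liver was at 0.15, 0.11 and 0.17 FPKM in wild-type and 0.08, 0.37 and 0.25 FPKM in deletion livers (exact two-sided permutation p = 0.4). Whole-liver RNA at so low a level cannot show whether the gene was lost in hepatocytes, so the deletion is taken from the labels. Wild-type CCl4 replicate 3 had Xist at 79.9 FPKM and Ddx3y at 0.0414 FPKM, where the other 8 libraries of that table had at most 0.0129 and at least 8.76 FPKM. Replicate 2 of the libraries labelled Sting knockout also stood apart, with the highest summed level of the 9 hepatocyte markers (96581 FPKM). Hepatocyte markers were present throughout, none at 0 in any table, at 38570 to 44701 FPKM in hepatocytes, 37484 to 96581 FPKM in the CCl4 table and 9852 to 33432 FPKM in the TAA table.

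In oil-treated wild-type liver the 3 classes differed in how they were shared out between members. Gstp1 and Gstm1, members of the pi and mu families, together made up 70.3% of the summed GST level (FPKM, mean over 3 libraries). Sult1a1, which sulfates phenols, and Sult2a8, which sulfates bile acids in mouse liver, made up 84.8% of the SULT level. The UGT level was spread more widely, with 41.5% in Ugt2b5 and Ugt2b36, steroid and bile acid UGTs. Among the CCl4 livers 14 UGT, 6 SULT and 19 GST members had a mean of at least 1 FPKM, and 2 UGT and 5 SULT members had no read in any of the 9 libraries. Sulfotransferases were thus the class with the fewest members at that level. In hepatocytes the counts at a mean of at least 1 FPKM were 13 UGT, 4 SULT and 18 GST, and among the TAA livers 18 UGT, 8 SULT and 19 GST.

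CCl4 was compared with oil in wild-type liver, which gives the change in these enzymes under the toxin. Of the 39 members tested (mean of at least 1 FPKM), 11 fell and none rose by limma at an adjusted p under 0.05, or 28.2% lower, where 6.15% of all genes tested were called lower and 9.19% higher. Called were 7 of 14 UGTs, 2 of 6 SULTs and 2 of 19 GSTs, and the difference between classes was not tested. The median log2 fold change was −1.36 for UGTs, −0.66 for SULTs and −0.74 for GSTs, against −0.08 for all genes tested. Groups did not overlap, with CCl4 lower, for 25 members, or 64.1%, against 21.4% of all genes tested. Of the 39, 38 had a mean of at least 1 FPKM in each of the 3 groups, the exception being Sult5a1. In whole liver, fewer hepatocytes and less RNA per hepatocyte cannot be told apart. The hepatocyte markers summed to 37484 to 55041 FPKM after CCl4 and 51208 to 70064 FPKM after oil, with 1 of 9 called lower (Cyp2e1), and macrophage markers to 804 to 1219 against 202 to 292 FPKM with 6 of 8 called higher. Stellate cell and fibroblast markers summed to 138 to 377 FPKM after CCl4 and 18.0 to 20.5 FPKM after oil, with 6 of 8 called higher. The part of these shifts in the fall of the enzymes was not tested.

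**Figure D1:**
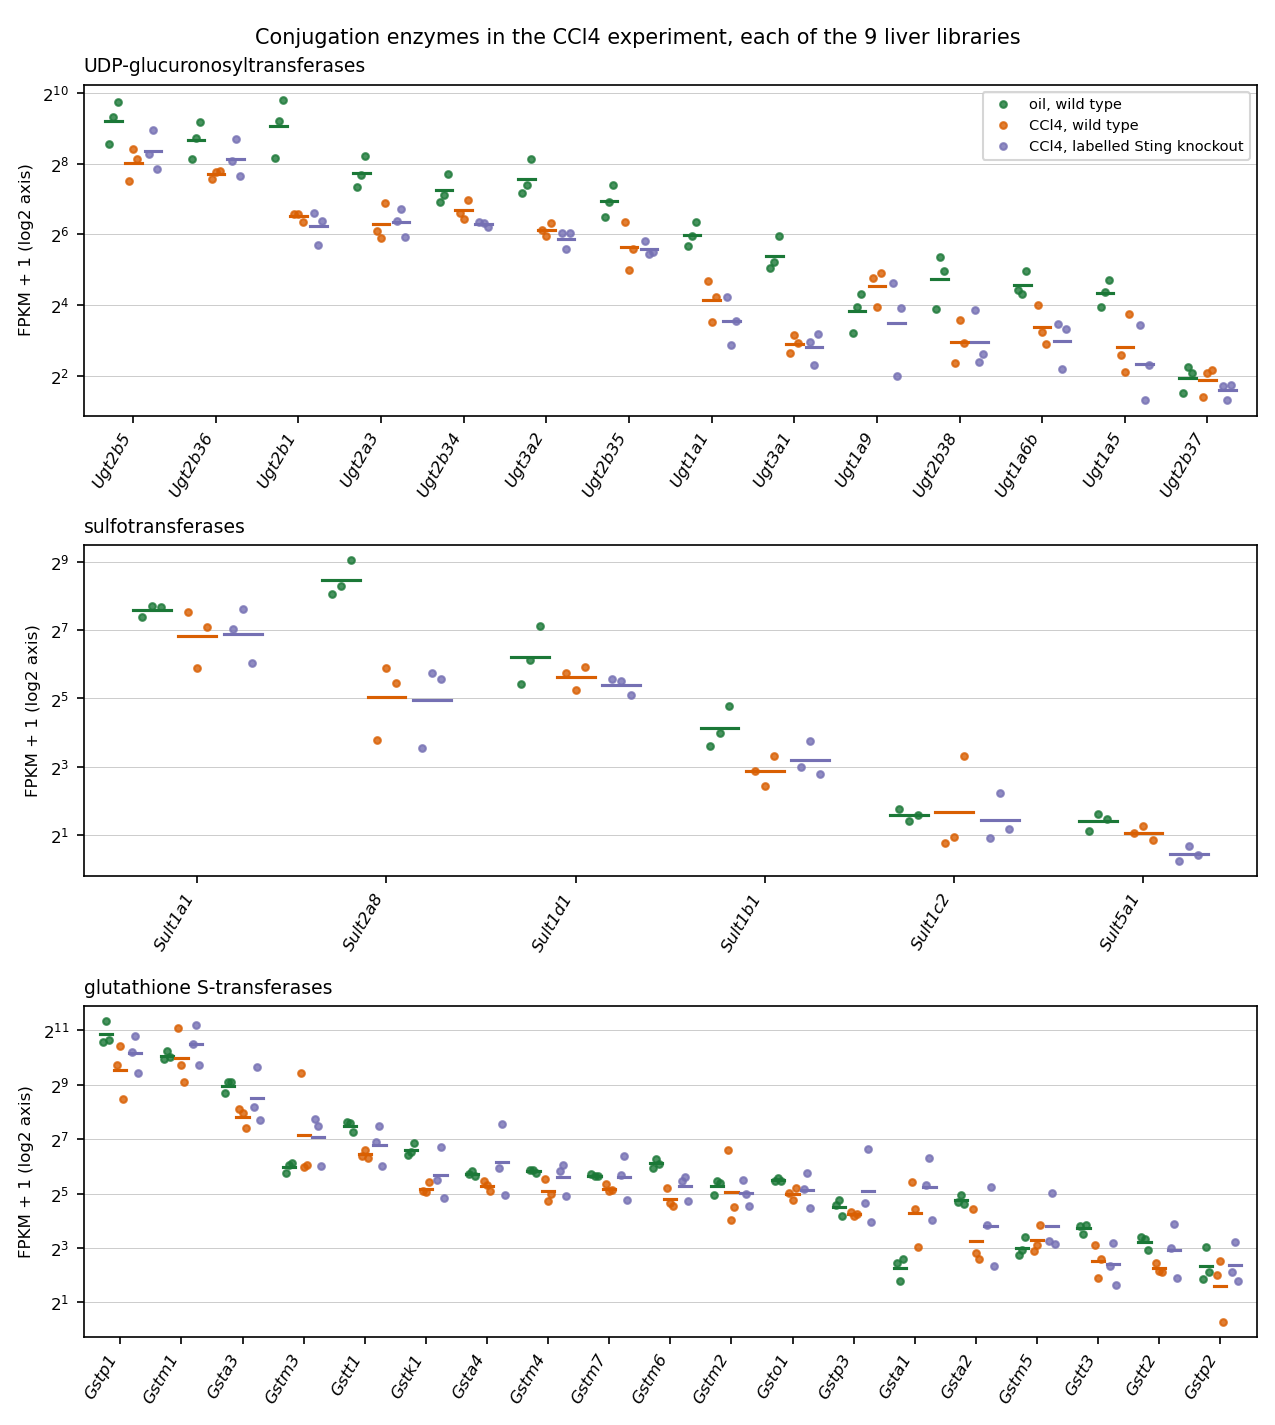
Level of each member with a mean of at least 1 FPKM in the 9 livers of the CCl4 experiment, on a log2 axis of FPKM + 1, by class (upper panel UGT, middle SULT, lower GST). Each point is a library and each bar the mean of log2(FPKM + 1) of its group. Most UGT points of the oil group lie above both CCl4 groups, and Gsta1 is the member whose oil libraries all lie below all CCl4 libraries.

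Among UGTs the steepest falls were in the Ugt2b and Ugt3a families. Ugt2b1 (chromosome 5, 86916638 to 86926530, mm10), a glucuronosyltransferase of the 2B family, was at 282.5, 590.5 and 897 FPKM after oil and at 95.03, 94.4 and 81.1 FPKM after CCl4. The CCl4 values lay close together below the lowest oil value, while the oil values were widely spread. On the log2(FPKM + 1) scale the change was −2.55 ± 0.42 (SE; limma adjusted p = 0.00293). Ugt3a1 (chromosome 15, 9276888 to 9315032), whose human counterpart uses N-acetylglucosamine in place of glucuronic acid, was at 31.8, 36.3 and 60.7 FPKM after oil and 5.30, 7.87 and 6.67 FPKM after CCl4, a log2 change of −2.49 ± 0.31 (limma adjusted p = 0.000664). Its neighbour Ugt3a2 was at 142, 169 and 278 FPKM after oil and 68.5, 61.1 and 78.6 FPKM after CCl4 (−1.43 ± 0.31, limma adjusted p = 0.0116). Both Ugt3a genes thus fell, to a summed 69.0 to 85.2 FPKM from 174 to 339 FPKM.

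Ugt2a3, a bile acid UGT, was at 159.6, 202 and 295 FPKM after oil and 68.0, 59.2 and 117 FPKM after CCl4 (−1.43 ± 0.36, limma adjusted p = 0.0241). Ugt2b38 was at 13.8, 40.1 and 30.6 FPKM after oil and 4.19, 11.03 and 6.68 FPKM after CCl4 (−1.77 ± 0.48, adjusted p = 0.031), and Ugt2b35 at 88.2, 120.1 and 168 FPKM and 79.8, 30.8 and 47.3 FPKM (−1.29 ± 0.37, adjusted p = 0.0397). Ugt2b38 and Ugt2b35 both kept the groups apart, by a small margin. When each of the 6 libraries of the comparison was left out in turn, Ugt3a1 and Ugt2b1 were called in 6 of 6 cases, Ugt3a2 and Ugt1a1 in 5, Ugt2a3 and Ugt2b38 in 2 and Ugt2b35 in 1. The log2 change stayed between −1.72 and −1.20 for Ugt2a3, −2.20 and −1.46 for Ugt2b38 and −1.64 and −0.97 for Ugt2b35. The most abundant UGTs, Ugt2b5 and Ugt2b36, did not pass the test. Ugt2b5 was at 377.5, 637 and 855 FPKM after oil and 182, 337 and 281 FPKM after CCl4, with a log2 change of −1.19 ± 0.42 (limma adjusted p = 0.0834), and the value for Ugt2b36 was −0.96 ± 0.37 (adjusted p = 0.109).

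At the Ugt1a locus 1 member passed. Ugt1a1, the bilirubin UGT, was at 49.7, 60.7 and 81.3 FPKM after oil and at 24.6, 10.5 and 17.8 FPKM after CCl4, a log2 change of −1.85 ± 0.40 (limma adjusted p = 0.0108). Ugt1a9, which shares its last 4 exons and was chosen after its values were seen, was at 8.19, 14.4 and 19.0 FPKM after oil and 26.3, 14.4 and 28.9 FPKM after CCl4, so that its groups overlap (0.72 ± 0.59, adjusted p = 0.485). Both hold the HNF1 motif printed above. The locus as a whole summed to 94.4, 115 and 157 FPKM after oil and to 73.6, 39.4 and 68.3 FPKM after CCl4. These sums did not overlap, but the locus taken as 1 gene did not pass (−1.02 ± 0.48, limma adjusted p = 0.191 over all genes). Ugt1a7c, also chosen after its values were seen and below the level filter, was at 0.156, 0.145 and 0.222 FPKM after oil and 2.10, 2.04 and 1.40 FPKM after CCl4. That was 28 recovered reads after oil and 435 after CCl4 over the 3 libraries of each group.

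**Figure D2:**
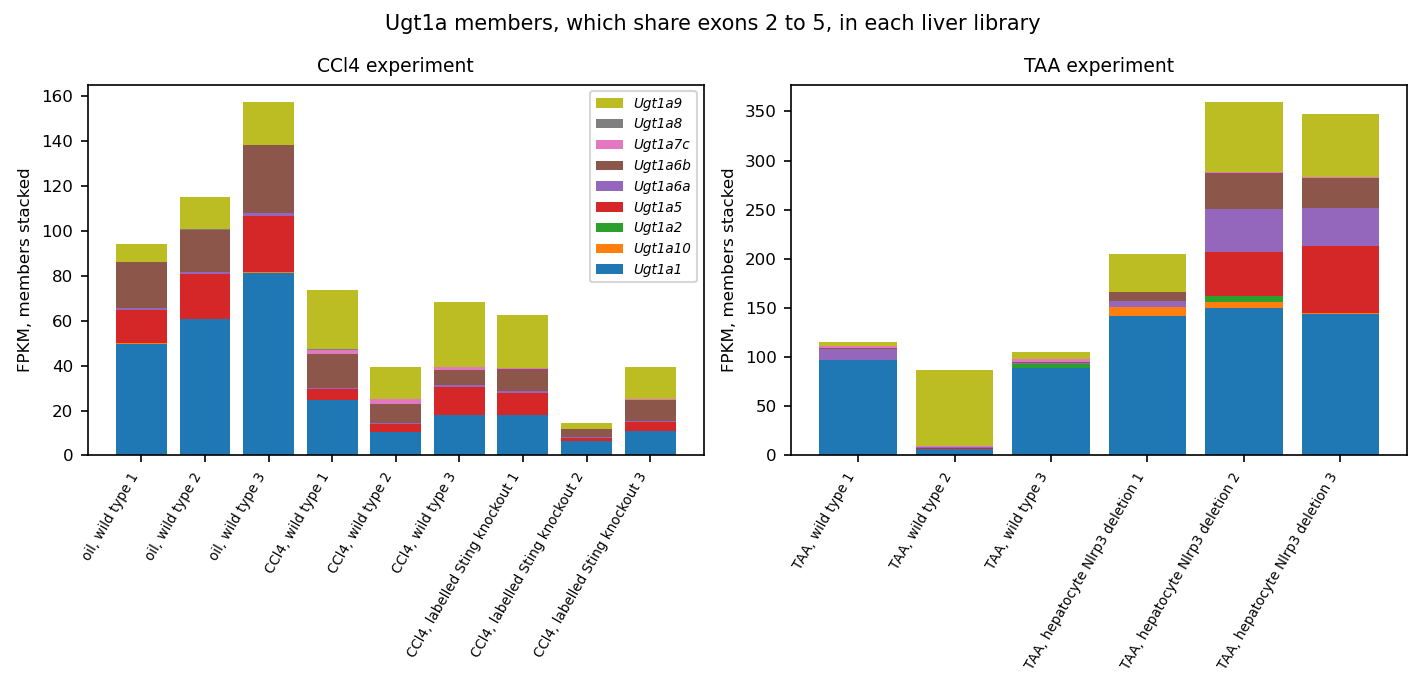
FPKM of the 9 Ugt1a members stacked for each liver library, with the CCl4 experiment in the left panel and the TAA experiment in the right panel, each on its own axis. Oil livers reach 94.4 to 157 FPKM and are mostly Ugt1a1, while in the TAA experiment wild-type replicate 2 is mostly Ugt1a9 where the other wild-type livers are mostly Ugt1a1.

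Among SULTs the 2 members that fell were Sult2a8 and Sult1b1. Sult2a8 (chromosome 7, 14410686 to 14446769) was at 266, 312.5 and 523.5 FPKM after oil and at 12.7, 57.8 and 43.0 FPKM after CCl4. It was the member with the largest fall, −3.43 ± 0.65 on the log2 scale (limma adjusted p = 0.00595). Sult1b1, which sulfates thyroid hormone and phenols, was at 11.3, 14.8 and 26.7 FPKM after oil and 6.41, 4.43 and 9.05 FPKM after CCl4 (−1.25 ± 0.36, limma adjusted p = 0.0424). With 1 library left out in turn, Sult2a8 was called in 6 of 6 cases and Sult1b1 in 2, with a log2 change between −1.50 and −0.92. Sult1a1, the other abundant member, did not pass, at 165, 207 and 202 FPKM after oil and 185, 58.4 and 134 FPKM after CCl4 (−0.74 ± 0.48, adjusted p = 0.357). Its share of the summed SULT level was 30.1% after oil and 52.8% after CCl4. The Sult2a family summed to 267 to 527 FPKM after oil and 13.3 to 57.9 FPKM after CCl4. Sult1e1, the oestrogen sulfotransferase, lay below the level filter and was chosen after its values were seen. It had 0, 1 and 3 recovered reads after oil and 74, 31 and 16 after CCl4, which is given as a description, since its oil libraries lie at or under the floor of 3 reads.

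Among GSTs Gstm6 and Gstk1 fell, and 12 of 19 had CCl4 values all below the oil values. Gstm6, of the mu family, was at 61.0, 76.1 and 67.6 FPKM after oil and 35.6, 24.0 and 22.0 FPKM after CCl4 (−1.32 ± 0.30, limma adjusted p = 0.0153). Gstk1, the kappa enzyme of mitochondria and peroxisomes, was at 84.0, 92.1 and 115 FPKM after oil and 32.9, 32.3 and 41.6 FPKM after CCl4 (−1.42 ± 0.42, adjusted p = 0.0447). With each of the 6 libraries left out in turn, Gstm6 was called in 3 cases and Gstk1 in none, while its log2 change stayed between −1.53 and −1.29. The most abundant GSTs did not pass. Gstp1 was at 1520.5, 2584 and 1602.5 FPKM after oil and 844, 1375 and 352 FPKM after CCl4, which do not overlap but did not pass (−1.31 ± 0.53, limma adjusted p = 0.129). Gstm1 ranged from 545 to 2176.5 FPKM after CCl4 around oil values of 987 to 1207 FPKM (−0.11 ± 0.52, adjusted p = 0.928, and 0.33 without CCl4 replicate 3). Gsta3, with the antioxidant core printed above, was at 414, 542.5 and 548.5 FPKM after oil and 271.5, 249 and 168 FPKM after CCl4 (−1.14 ± 0.46, adjusted p = 0.131).

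A pair of GST members had higher values in 1 or in all CCl4 libraries. Gstm3 was at 53.3, 65.7 and 68.6 FPKM after oil and 682.5, 62.5 and 64.9 FPKM after CCl4. Its log2 change was 1.17 ± 0.81 (limma adjusted p = 0.393), and 0.04 without CCl4 replicate 1 (adjusted p = 0.974). Gsta1 (chromosome 9, 78230656 to 78242684), an alpha GST, was at 4.40, 2.48 and 4.995 FPKM after oil and at 41.7, 20.7 and 7.20 FPKM after CCl4. All 3 CCl4 values lay above the oil values, with a log2 change of 2.03 ± 0.63 that missed the threshold by limma (adjusted p = 0.0555) and passed by edgeR's quasi-likelihood test on recovered reads (adjusted p = 0.0178). The latter test called 13.2% of all genes higher and 5.51% lower. Its near copy Gsta2 had the opposite sign, at 25.0, 29.8 and 23.5 FPKM after oil and 20.4, 6.01 and 4.98 FPKM after CCl4 (−1.48 ± 0.65, limma adjusted p = 0.165). Gsta1 and Gsta2 were both named after their values were seen in this comparison.

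Genes around the conjugating enzymes were read from lists that were chosen with earlier results of these data known. By the same limma test 6.15% of all genes tested were called lower and 9.19% higher. Of 13 transporters of conjugates tested, 8 fell and 1 rose. Slco1a1, an uptake carrier of the sinusoidal membrane, was at 161 ± 54.3 FPKM after oil and 16.0 ± 11.5 FPKM after CCl4 (SD, n = 3 each; log2 change −3.41 ± 0.47, limma adjusted p = 0.00112), and Abcb11, the bile salt export pump, changed by −1.32 ± 0.27 (adjusted p = 0.00852). Abcc4, a basolateral exporter of conjugates, was the transporter that rose (1.06 ± 0.18, limma adjusted p = 0.00331). Of 15 other conjugating enzymes 6 fell, among them Baat, which joins amino acids to bile acids (−1.30 ± 0.30, adjusted p = 0.0148), and Mgst1, the microsomal GST (−1.36 ± 0.33, adjusted p = 0.0209). Hpgds, a sigma GST that makes prostaglandin D, rose by 1.64 ± 0.24 (limma adjusted p = 0.00141). No gene of cofactor supply passed among 12 tested (4 lower without overlap, median −0.36).

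Of 13 regulators tested 3 fell and none rose, namely Cebpa (−1.93 ± 0.44, limma adjusted p = 0.0142), Nr1i3, which encodes the drug-sensing receptor CAR (−0.94 ± 0.25, adjusted p = 0.0274), and Nr1h4, the bile acid receptor FXR (−1.15 ± 0.35, adjusted p = 0.0487). Of 13 NRF2 targets outside the members 1 rose, Hmox1 (2.16 ± 0.41, limma adjusted p = 0.0057). Pericentral markers fell in 7 of 12 cases, with Glul at −3.46 ± 0.27 (limma adjusted p = 5.4e-05), while 3 of 15 periportal markers fell and 2 rose. Male-biased liver genes fell in 11 of 13 cases, to a summed 410 to 3369 FPKM from 8636 to 14394 FPKM. The lowest sum was that of CCl4 replicate 3, the library with high Xist. Female-biased genes summed to 35.4, 2.67 and 124 FPKM after CCl4, highest in the same replicate, and 2.34 to 3.92 FPKM after oil. The pericentral list summed to 1013 to 1902 FPKM after CCl4 and 4933 to 7844 FPKM after oil. The part of zone and of sex-biased programmes in the fall of the members was not tested.

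**Figure D3:**
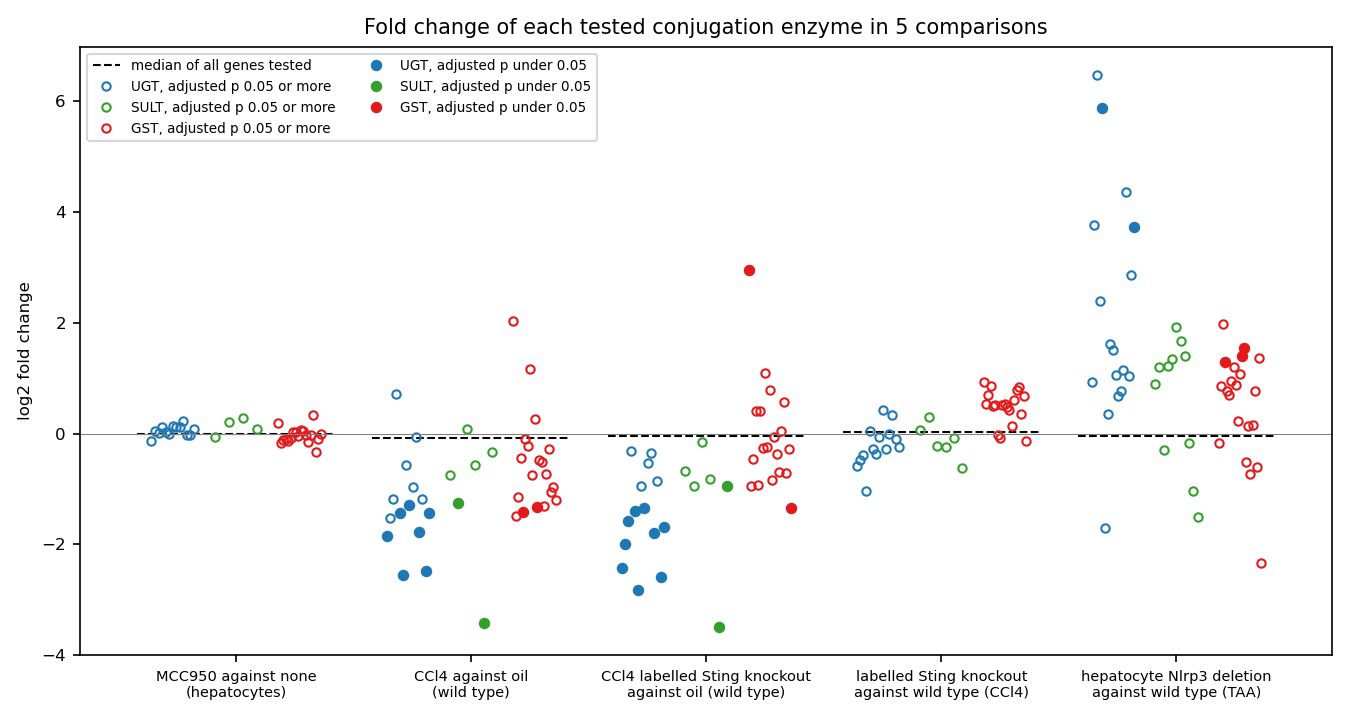
Log2 fold change of every tested member in the 5 comparisons, coloured by class, filled where the adjusted p was under 0.05 (limma, and edgeR for TAA), with the dashed line at the median of all genes tested. Sult2a2 is left out of the TAA column because it had 0 counts in every wild-type library. In the 2 columns against oil most UGTs lie below 0, and in the TAA column most members lie above 0.

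The CCl4 libraries labelled Sting knockout were set against the same oil libraries, so these values share their controls with those above and are given side by side, not as a second test. Of 39 members tested 12 fell and 1 rose by limma, or 30.8% and 2.56%, where 5.91% and 8% of all genes were called lower and higher. Calls were 9 of 14 UGTs, all lower, 2 of 6 SULTs, both lower, and 2 of 19 GSTs, 1 in each direction. By edgeR on recovered reads 12 fell and 1 rose of 43 tested, against 4.93% and 11.4% of all genes. Groups did not overlap, lower than oil, for 14 members, or 35.9%, against 19.8% of all genes tested. All 14 UGTs had a negative fold change, with a median of −1.49, and GSTs had a median of −0.26 against −0.04 for all genes tested. Markers of other cells moved here as well. Stellate cell and fibroblast markers summed to 220.5 to 401 FPKM against 18.0 to 20.5 FPKM after oil (6 of 8 called higher), macrophage markers to 722 to 1040.4 against 202 to 292 FPKM (4 of 8) and neutrophil markers to 70.5 to 181 against 4.39 to 15.7 FPKM (3 of 3 tested). Red blood cell markers summed to 1893 to 3051 FPKM against 349 to 968 FPKM (2 of 5), and hepatocyte markers to 39586 to 96581 FPKM against 51208 to 70064 FPKM. Of the hepatocyte markers Cyp2e1 and Tat were called. The part of all these markers in the result was not tested.

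Ugt2b1 was at 96.2, 50.8 and 83.0 FPKM in the libraries labelled Sting knockout (−2.83 ± 0.42 against oil, limma adjusted p = 0.00195). Ugt3a1 was at 6.79, 3.94 and 8.04 FPKM (−2.59 ± 0.31, adjusted p = 0.000587) and Sult2a8 at 10.8, 52.6 and 46.6 FPKM (−3.50 ± 0.65, adjusted p = 0.00587). In both CCl4 groups Sult2a8 was thus lowest in replicate 1. Ugt1a1 was at 17.9, 6.29 and 10.8 FPKM (−2.43 ± 0.40, limma adjusted p = 0.00305) and Ugt3a2 at 64.4, 46.7 and 64.4 FPKM (−1.68 ± 0.31, adjusted p = 0.00571). The Ugt1a locus taken as 1 gene changed by −1.82 ± 0.48 (limma adjusted p = 0.0307 over all genes). Within it Ugt1a6b, a UGT of planar phenols, was at 20.4, 18.8 and 30.3 FPKM after oil and 9.97, 3.57 and 9.01 FPKM here (−1.58 ± 0.38, adjusted p = 0.0217). Ugt1a5 (9.81, 1.47 and 3.92 FPKM) and Ugt2b38 (13.4, 4.21 and 5.17 FPKM) also passed. Without replicate 2 neither did (limma adjusted p = 0.0831 and 0.0952), with log2 changes of −1.48 and −1.50 against −2.00 and −1.79. With each of the 6 libraries left out in turn Ugt1a5 was called in 1 case and Ugt2b38 in 2.

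Gsta1 was the member that rose, at 38.9, 78.9 and 15.4 FPKM in the libraries labelled Sting knockout against 2.48 to 4.995 FPKM after oil. The log2 change was 2.95 ± 0.63 (limma adjusted p = 0.012), and 2.40 without replicate 2 (adjusted p = 0.0373). The other called members were Sult5a1 (−0.95 ± 0.22, limma adjusted p = 0.0161), Ugt2a3 (−1.40 ± 0.36, adjusted p = 0.0295), Ugt2b35 (−1.35 ± 0.37, adjusted p = 0.0359) and the theta GST Gstt3 (−1.34 ± 0.39, adjusted p = 0.0469), which were named after their values were seen. Sult5a1 was below 1 FPKM in all 3 libraries labelled Sting knockout and passed the level filter through the other groups, so its fall carries no weight in the count, which is 11 of 38 without it.

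Between the libraries labelled Sting knockout and the wild-type livers, both under CCl4, no member passed by limma, and none by edgeR on recovered reads. At an unadjusted p under 0.05 there was 1 member of 39, where 3.18% of all genes tested reached that level and 0% were called in either direction. The member was Sult5a1, at 1.12, 1.40 and 0.828 FPKM in wild type and 0.184, 0.630 and 0.339 FPKM in the libraries labelled Sting knockout. These values did not overlap but lay near the level filter (−0.62 ± 0.22, limma adjusted p = 0.761). Groups did not overlap for 2 members, both lower, where 2.78% of all genes tested were lower and 2.35% higher without overlap. Next by p were Ugt1a9 (−1.03 on the log2 scale), Gstt2 (0.68) and Gsta4 (0.85), each at an adjusted p of 0.761 by limma. Without replicate 2 of the labelled knockout these values were −0.27, 0.20 and 0.15. The median log2 fold change was 0.51 for GSTs and −0.26 for UGTs, against 0.02 for all genes tested. Over all 39 members it was 0.06. Without replicate 2 of the labelled knockout it was 0.006, against 0.01 for all genes of that fit. Medians by class without that library were not computed.

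Replicate 2 of the libraries labelled Sting knockout was the highest of the 9 livers for 12 of 19 GSTs and the lowest for 8 of 14 UGTs. There Gsta4, which clears the lipid peroxidation product 4-hydroxynonenal, was at 186 FPKM against 61.0 and 29.5 FPKM in the other two, and Ugt1a9 was at 2.96 FPKM against 23.7 and 14.1 FPKM. Gstp3, chosen after its values were seen, was at 98.8 FPKM there against 23.9 and 14.5 FPKM. The same library had the highest hepatocyte marker sum. Red blood cell markers summed to 1893 to 3051 FPKM in the libraries labelled Sting knockout and 271 to 1093 FPKM in wild type, and their part was not tested. Oil replicate 3 was the highest of the 9 for 11 of 14 UGTs.

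**Figure D4:**
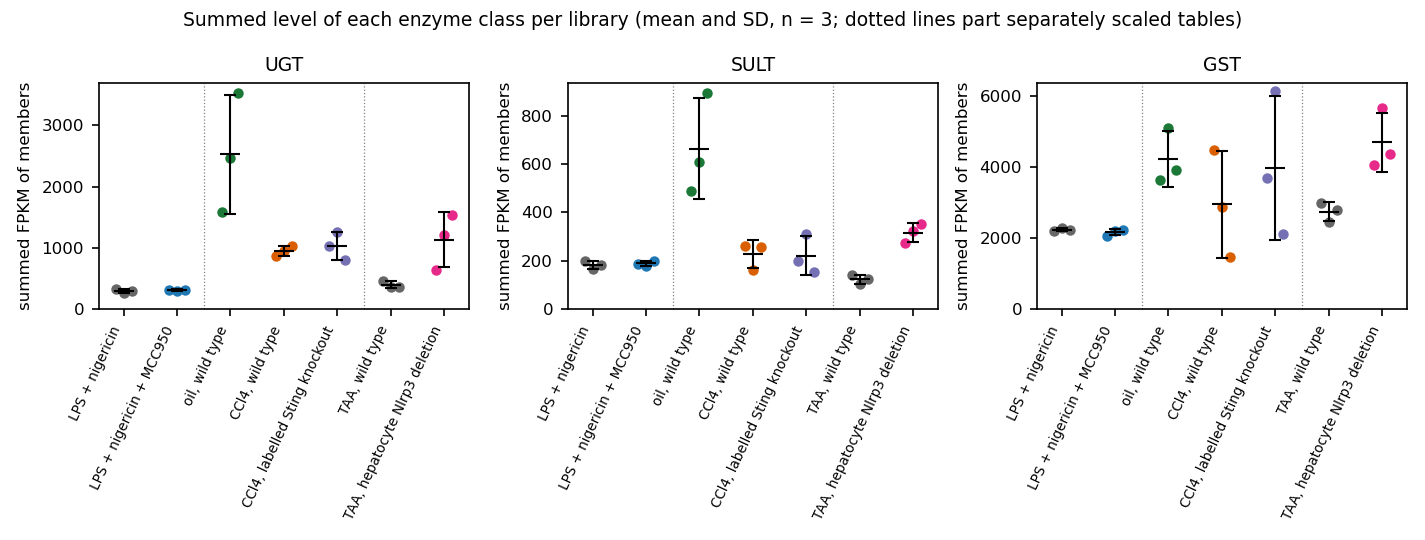
Summed FPKM of the UGT, SULT and GST members in each library (points), with the group mean and SD (bars, n = 3), for all 7 groups. The dotted lines part the 3 tables, which were scaled separately. UGT and SULT sums are lower in both CCl4 groups than after oil and higher in deletion than in wild-type livers under TAA, while GST sums overlap between oil and CCl4.

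Summed over the class, UGT members were at 2528 ± 970 FPKM after oil, 948 ± 86.9 FPKM in wild-type CCl4 livers and 1032 ± 223 FPKM in the libraries labelled Sting knockout (SD, n = 3 each). SULT members were at 664 ± 210 FPKM, 227 ± 57.3 FPKM and 220.4 ± 80.8 FPKM. Neither sum overlapped between oil and CCl4. GST members were at 4217 ± 780.5 FPKM, 2948 ± 1504 FPKM and 3974 ± 2025 FPKM, with overlap among all 3 groups.

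Under TAA, livers with hepatocyte Nlrp3 deletion were compared with wild-type livers, which by the labels addresses the loss of the inflammasome sensor in hepatocytes. Of 50 members tested by edgeR's quasi-likelihood test on counts, 5 rose and none fell, or 10%, where 1.37% of all genes were called higher and 0.36% lower. These were 2 of 17 UGTs, 0 of 12 SULTs and 3 of 21 GSTs. At an unadjusted p under 0.05 there were 32 members of 50, against 28.9% of all genes tested. By limma on FPKM 27 of 45 members tested were called higher and none lower, against 21.7% and 1.93% of all genes. On FPKM, groups did not overlap, with the deletion higher, for 29 members, or 58%, against 27.8% of all genes. With the deletion lower this held for 0 members and 6.68% of all genes. The median log2 fold change was 1.04 over the 50, with 1.51 for UGTs, 1.21 for SULTs and 0.77 for GSTs, against −0.04 for all genes tested. Of the 50, 35 had a mean of at least 1 FPKM in both groups. The other 15 included 7 UGTs, among them the called Ugt1a6b, and over the 35 the medians were 0.95 in all, 1.04 for 10 UGTs, 1.21 for 6 SULTs and 0.86 for 19 GSTs, with 4 called. The median of all genes is 0.33 on the authors' FPKM scale, so FPKM levels below stand higher in the deletion by that shift than edgeR's scaling gives. The limma calls and every statement on overlap under TAA rest on the same FPKM scale and lean the same way.

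The 5 calls all lay at the edge of the threshold, at an adjusted p of 0.0487 by edgeR. Without deletion replicate 1 there were 35 called members of 52, with 30 higher and 5 lower. That is 57.7% and 9.62%, where the same fit called 17.9% of all genes higher and 20.0% lower. Without wild-type replicate 1 there was 1, and without deletion replicate 2, deletion replicate 3, wild-type replicate 2 or wild-type replicate 3 there were none. In these fits hardly any gene was called, at most 0.0302% of all genes higher and 0.0503% lower. Hepatocyte markers were also higher, at a summed 26372 to 33432 FPKM in the deletion and 9852 to 10648 FPKM in wild type, with all 9 fold changes positive, 7 without overlap and 2 called (Fgb and Serpina1a). Macrophage markers summed to 85.7 to 309 FPKM and 75.5 to 87.3 FPKM, with none of 8 called. Endothelial markers summed to 21.8 to 53.1 FPKM in the deletion against 14.8 to 15.9 FPKM, lymphocyte markers to 5.68 to 6.08 against 2.82 to 3.63 FPKM, and red blood cell markers to 172 to 417 against 87.2 to 133 FPKM, all without overlap and none called. The part of these cell contents in the members' values was not tested.

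**Figure D5:**
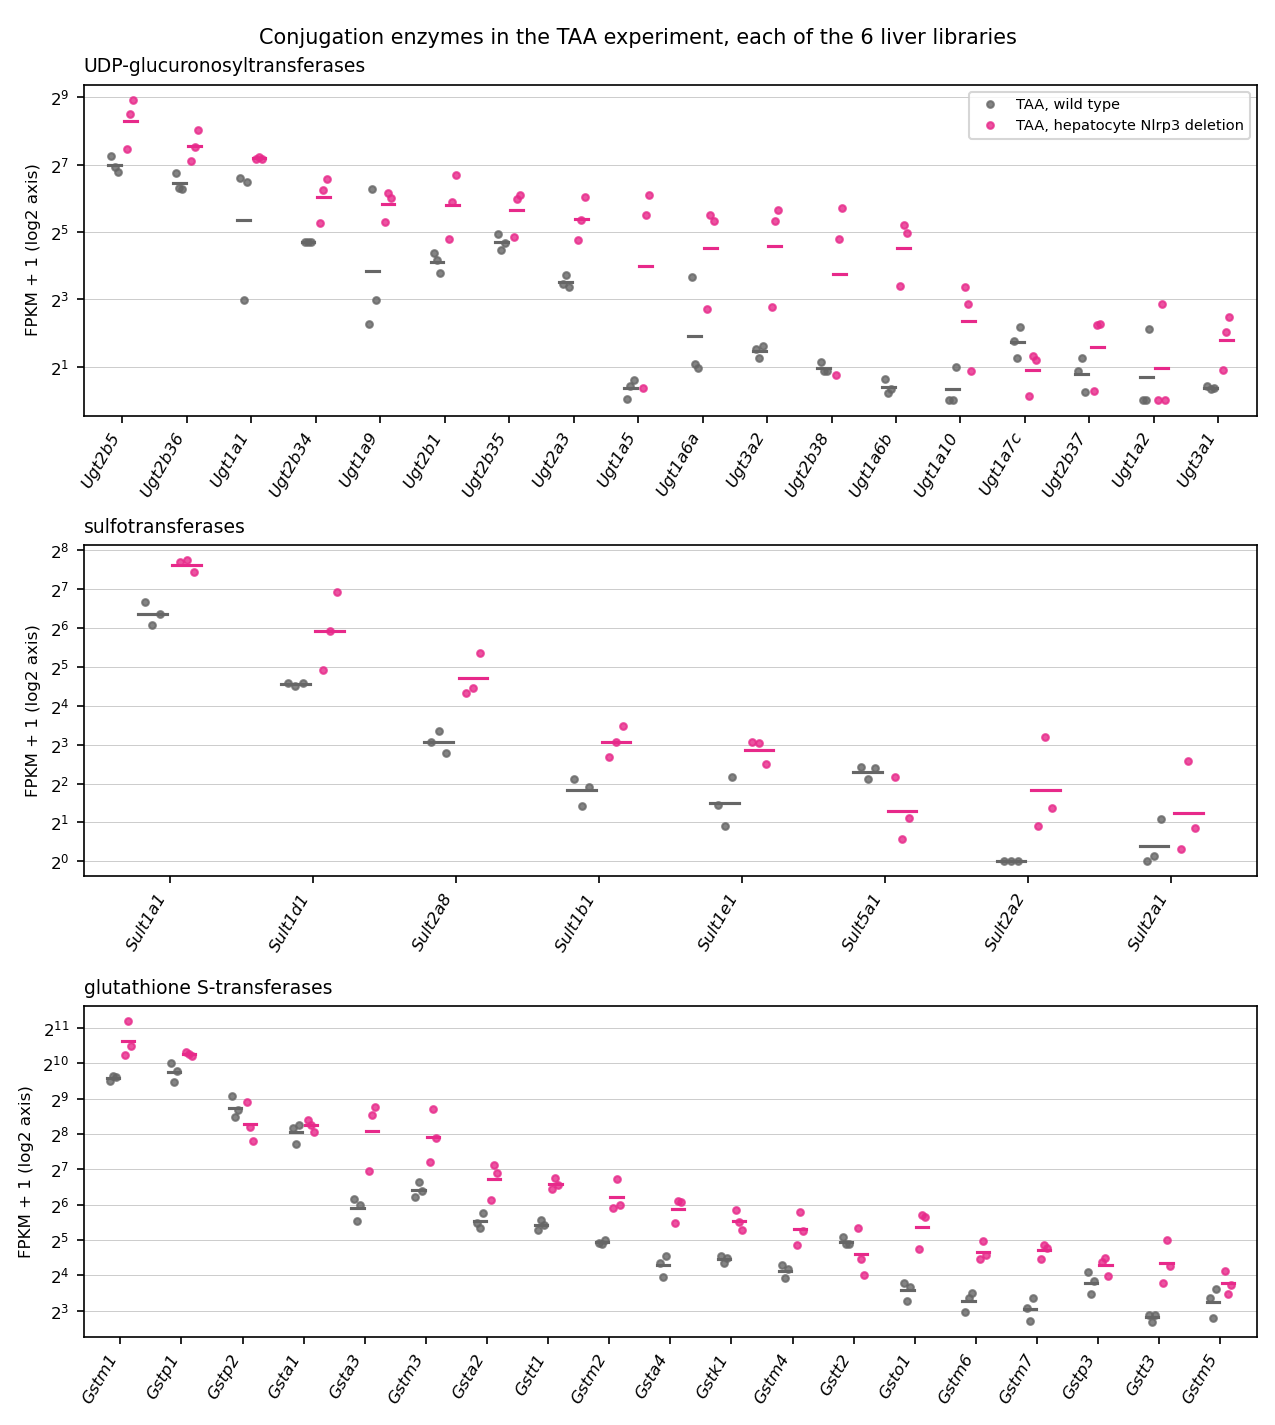
Level of each member with a mean of at least 1 FPKM in the 6 livers of the TAA experiment, on a log2 axis of FPKM + 1, by class (upper panel UGT, middle SULT, lower GST). Each point is a library and each bar the mean of log2(FPKM + 1). Deletion points lie above wild type for most members, with replicate 1 of the deletion lowest of the 3 for most UGTs.

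Ugt1a6b (chromosome 1, 88103252 to 88219003) was at 0.56, 0.16 and 0.26 FPKM in wild-type TAA livers and at 9.58, 36.1 and 30.1 FPKM in the deletion, a log2 change of 5.88 ± 0.59 (SE; edgeR adjusted p = 0.0487). Its near copy Ugt1a6a was at 11.8, 1.13 and 0.96 FPKM in wild type and 5.57, 44.2 and 39.0 FPKM in the deletion, so that its groups overlap (edgeR adjusted p = 0.173). Ugt3a2 was at 1.87, 1.42 and 2.08 FPKM in wild type and 5.78, 39.2 and 49.2 FPKM in the deletion (3.73 ± 0.67, adjusted p = 0.0487). Deletion replicate 1 was the lowest of its group for each of these, and for 16 of 17 UGTs tested, 7 of 12 SULTs and 12 of 21 GSTs. Ugt3a1 did not pass, at 0.34, 0.26 and 0.28 FPKM and 0.88, 3.08 and 4.57 FPKM (2.87 ± 0.56, edgeR adjusted p = 0.0501). It was chosen after its values were seen, as was Ugt1a6a.

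The Ugt1a locus was split between its members differently from liver to liver. In wild-type TAA livers Ugt1a1 was at 97.0, 6.93 and 88.5 FPKM and Ugt1a9 at 3.86, 76.9 and 6.88 FPKM. The locus as a whole stayed between 87.1 and 116 FPKM in these 3 livers, so that replicate 2 had a similar total assigned mostly to the other member. In the deletion Ugt1a1 was at 142, 149.9 and 144 FPKM and Ugt1a9 was at 38.3, 71.0 and 63.7 FPKM, and the locus summed to 205, 359 and 347 FPKM. Taken as 1 gene the locus changed by 1.24 ± 0.26 (edgeR adjusted p = 0.0496 over all genes), as near the threshold as the calls above. Neither Ugt1a1 nor Ugt1a9 passed (edgeR adjusted p = 0.406 and 0.847), though the Ugt1a1 values did not overlap. Ugt1a5 was at 0.03, 0.36 and 0.53 FPKM in wild type and 0.28, 44.2 and 67.9 FPKM in the deletion, which overlap because of replicate 1 (6.48 ± 1.73, adjusted p = 0.0663). In the CCl4 table Ugt1a9 was at most 28.9 FPKM. What set the split in wild-type replicate 2 was not tested. Ugt1a9 and Ugt1a5 were chosen after their values were seen.

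Ugt2b5 was at 150.5, 122 and 108 FPKM in wild-type TAA livers and 176, 364 and 487 FPKM in the deletion (1.03 ± 0.35, edgeR adjusted p = 0.106), and Ugt2b36 at 107, 77.3 and 77.1 FPKM and 137, 183.5 and 258 FPKM (0.77 ± 0.26, adjusted p = 0.108). Neither pair of groups overlapped. Ugt2b38, the near copy of Ugt2b5 and chosen after its values were seen, was at 1.20, 0.84 and 0.83 FPKM in wild type and 0.70, 26.6 and 51.4 FPKM in the deletion (adjusted p = 0.068). As with Ugt1a5, replicate 1 of the deletion lay at the wild-type level.

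No SULT passed under TAA. Sult1a1 (chromosome 7, 126672865 to 126676432) was at 101, 66.4 and 80.5 FPKM in wild type and 207.5, 212 and 172 FPKM in the deletion, with no overlap (0.89 ± 0.20, edgeR adjusted p = 0.0522). Sult1d1, which sulfates catecholamines and phenols, was at 23.1, 21.8 and 22.9 FPKM in wild type and 29.3, 59.4 and 119 FPKM in the deletion (1.22 ± 0.44, adjusted p = 0.121). The wild-type livers lay close together, below the lowest of the widely spread deletion livers. Sult2a2, chosen after its values were seen, had 0 counts in every wild-type library and 43 to 422 counts in the deletion (edgeR adjusted p = 0.0501). Its mean share of total counts in the deletion was 42.1-fold that of a floor of 3 counts per wild-type library. That ratio of means was taken without edgeR's scaling, and the deletion libraries varied widely around it. Sult2a8 was at 7.40, 9.26 and 5.94 FPKM and 19.1, 20.8 and 39.9 FPKM (1.40 ± 0.37, adjusted p = 0.0662).

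The 3 GSTs that rose under TAA were of 3 families. Gsto1 (chromosome 19, 47854970 to 47864790), the omega enzyme that reduces dehydroascorbate, was at 12.7, 8.61 and 11.8 FPKM in wild type and 25.6, 51.0 and 48.9 FPKM in the deletion (1.54 ± 0.26, edgeR adjusted p = 0.0487). Gstm7 (chromosome 3, 107926334 to 107931817) was at 7.48, 5.52 and 9.30 FPKM and 21.2, 28.2 and 26.3 FPKM (1.40 ± 0.20, adjusted p = 0.0487). Gsta4 (chromosome 9, 78182774 to 78209349) was at 19.4, 14.4 and 22.3 FPKM and 43.8, 67.9 and 66.1 FPKM (1.29 ± 0.21, adjusted p = 0.0487). None of these groups overlapped. Gsta3 lay just outside the threshold, at 71.0, 45.2 and 62.9 FPKM in wild type and 122, 367.4 and 429.8 FPKM in the deletion (1.98 ± 0.41, edgeR adjusted p = 0.0501), and was chosen after its values were seen.

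The most abundant GSTs did not pass under TAA. Gstp1 was at 1029, 703 and 872.5 FPKM in wild type and 1270.5, 1218 and 1193 FPKM in the deletion (0.14 ± 0.20, edgeR adjusted p = 0.676), and Gstm1 at 729.6, 802 and 779 FPKM and 1202, 2340.5 and 1444.5 FPKM (0.70 ± 0.29, adjusted p = 0.162). Gsta1 was at 288, 209 and 304 FPKM and 339, 306.5 and 264 FPKM (−0.17 ± 0.20, adjusted p = 0.612), with the other sign by limma on FPKM (0.19). Gstp2 was at 535, 354 and 410.5 FPKM in wild type and 479, 290.1 and 221.5 FPKM in the deletion (−0.73 ± 0.33, adjusted p = 0.184). The CCl4 table gives Gstp2 at most 8.43 FPKM, where its near copy Gstp1 reached 2584 FPKM. The tables were scaled separately, and how each divided reads between the 2 copies was not tested.

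Around the members, 2 of 17 other conjugating enzymes rose under TAA. Gnmt, which methylates glycine, was at 152 ± 45.9 FPKM in wild type and 893 ± 317 FPKM in the deletion (SD, n = 3 each; log2 change 2.19 ± 0.30, edgeR adjusted p = 0.0487), and Inmt, an N-methyltransferase, at 28.7 ± 5.46 and 149 ± 51.0 FPKM (2.01 ± 0.26, adjusted p = 0.0487). Slc10a1, the bile salt uptake carrier, was the single call among 14 transporters (2.49 ± 0.40, edgeR adjusted p = 0.0487), and Ces2e among 9 deconjugating enzymes. None of 13 regulators, 14 NRF2 targets or 12 cofactor supply genes passed. Of the zone markers, 1 of 14 pericentral (Cyp2c29) and 1 of 15 periportal (Ass1) were called higher. Pericentral markers summed to 1963 to 2956 FPKM in the deletion and 821 to 1002 FPKM in wild type, periportal markers to 18159 to 28842 and 6161 to 6931 FPKM. Male-biased liver genes summed to 2677 to 5551 and 1045 to 2022 FPKM, all without overlap. Female-biased genes overlapped, at 121 to 355 and 71.7 to 165 FPKM. The list genes called under TAA numbered 8, with Fgb and Serpina1a above. Taking each gene in each alternative fit as a case, they kept their call in 56 cases and lost it in 56. The part of these lists in the members' values was not tested.

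MCC950 was compared with no inhibitor in the stimulated hepatocytes, which addresses the block of NLRP3. No member of 35 tested passed by limma or by edgeR on recovered reads, as for all genes, of which 0% were called in either direction. At an unadjusted p under 0.05 there were 2 members, where 11.9% of all genes reached that level. Groups did not overlap for 5 members, 2 higher and 3 lower with MCC950, which is 5.71% and 8.57% against 8.88% and 10.8% of all genes. The 2 with the smallest p were Gstp3 and Sult1e1. Gstp3 was at 37.6, 34.7 and 32.1 FPKM without and 23.3, 30.0 and 29.5 FPKM with MCC950 (−0.33 ± 0.11, limma adjusted p = 0.394), and Sult1e1 at 23.2, 17.6 and 22.5 FPKM and 26.2, 24.3 and 26.9 FPKM (0.29 ± 0.11, adjusted p = 0.402). Gsto1 (−0.15 ± 0.07) and Ugt2b35 (0.12 ± 0.05) followed, both at a limma adjusted p of 0.422.

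The abundant members had overlapping values with and without MCC950. Gstp1 was at 1004, 1226 and 1124.01 FPKM without and 987, 1128 and 1172 FPKM with MCC950 (log2 change −0.03 ± 0.10, limma adjusted p = 0.915), and Gstm1 at 674, 552.5 and 596 FPKM and 581, 570.4 and 558 FPKM (−0.09 ± 0.08, adjusted p = 0.644). Sult1a1 was at 114, 97.5 and 95.8 FPKM and 94.7, 93.3 and 105 FPKM (−0.07 ± 0.08, adjusted p = 0.736). Among UGTs Ugt2b5 changed by −0.02 ± 0.10, Ugt3a2 by 0.07 ± 0.06 and Ugt2b36 by 0.11 ± 0.07 on the log2 scale. Gsta1 was at 57.9, 78.2 and 78.5 FPKM without and 76.5, 78.3 and 88.4 FPKM with MCC950. Summed UGT members were at 298 ± 26.9 and 308 ± 15.04 FPKM, SULT members at 183 ± 14.8 and 189 ± 11.05 FPKM, and GST members at 2237 ± 44.8 and 2166 ± 93.5 FPKM (SD, n = 3 each), all with overlap.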

How the data were processed

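RNA-seq of 21 libraries came in 3 tables, which were scaled separately and were each analysed alone. Per the submitters' processing notes, reads were aligned with HISAT2 2.2.1 to mm10 and counted with featureCounts 1.5.0-p3. The hepatocyte and CCl4 tables hold FPKM values deposited by the authors, and the TAA table holds raw read counts and FPKM deposited by the authors. In the FPKM tables every value above 0 was a whole multiple of 1 read (100%, tolerance 0.05), so reads were recovered for an alternative count test.

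FPKM were tested as log2(FPKM + 1) with limma 3.58.1 with an intensity trend, for genes averaging 1 FPKM or more, and 1 fit held all 3 CCl4-table groups. The fold changes are on that scale, which understates changes of low genes. Counts were tested with edgeR 4.0.16 (quasi-likelihood, TMM, filterByExpr) in R 4.3.3. The p-values were adjusted by Benjamini-Hochberg over all genes of the table, and called means an adjusted p under 0.05. Testing covered 9835 genes in hepatocytes, 11511 in the CCl4 table and 18619 in the TAA table. Of the members, 28, 24 and 7 were not tested because of low values. Both scripts were tested on simulated data. Alternatives were other pseudocounts (0.1, 0.5), filters, scalings, DESeq2 1.42.0, a replicate block, the Ugt1a members summed, and leaving out each library.

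Same-numbered libraries deviated together in CCl4 against oil (correlations 0.225, 0.319 and 0.516) and in the libraries labelled Sting knockout against wild type under CCl4 (0.189, 0.176 and 0.12). In MCC950 against no inhibitor they did so too (0.179, 0.218 and 0.085). This pairs them by their values only, as no label ties a number to a litter, culture or day. The main tests hold no replicate block. Members and gene lists were chosen with earlier results of these data known. Named were, per table, the 3 UGT, 2 SULT and 4 GST with the highest mean FPKM, and, per comparison, called members with the largest changes (at most 8 each way, every one for CCl4 against oil) or, with under 3 calls, the 4 with the smallest p. Of each other list, called genes were named, at most 4. Depth limits the precision of low members, and intervals from replicates cover these libraries only.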

Additional observations from a re-analysis of the deposited data

How the results depend on the processing

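Calls are counted over members at an adjusted p under 0.05. For MCC950, and for the libraries labelled Sting knockout against wild type under CCl4, every alternative gave 0. Over all genes these alternatives called at most 1 higher and 2 lower. For CCl4 against oil (11 called), no filter on low values gave 7, quantile normalization 6, edgeR on recovered reads 17 (3 higher, 14 lower, the higher including Ugt1a7c and Sult1e1, near 0 after oil), and a fit of only the 2 groups 19. Over all genes no filter called 987 higher and 516 lower of 26956, and quantile normalization 851 and 522 of 11511. EdgeR called 1969 and 821 of 14894, and the fit of only the 2 groups 1056 and 977 of 11447. Leaving out 1 library of these groups gave 3 to 10, with 6 without CCl4 replicate 2, 5 without oil replicate 2 and 3 without oil replicate 3. Over all genes the last 3 fits called 927 higher and 431 lower of 11515, 674 and 262 of 11602, and 678 and 290 of 11570. Chosen after seeing the data, the count was 20 with labelled Sting knockout replicate 2 left out and 17 when CCl4 replicate 3 was left out as well. Over all genes these fits called 1274 higher and 1198 lower of 11499, and 1352 and 1187 of 11376. Ugt3a1, Ugt2b1 and Sult2a8 were called in 21 of 21 alternatives, and Ugt2b35 in 12. For the libraries labelled Sting knockout against oil (13 called), no filter gave 6 and leaving out 1 library 6 to 12, with 8 without replicate 3 and 6 without oil replicate 2 or 3. Over all genes no filter called 703 higher and 482 lower of 26956, and the fit without replicate 3 664 and 386 of 11464. Without oil replicate 2 there were 587 and 283 of 11602, and without oil replicate 3 543 and 238 of 11570. For TAA (5 called), RLE factors gave 0, DESeq2 29 (28 higher, 1 lower), no filter 19, limma on FPKM 27, protein-coding genes alone 12, a robust fit 8, the Ugt1a members summed 8, and leaving out 1 library 0 to 35. The calls over all genes moved as well. RLE factors called 1 higher and 0 lower of 18619, DESeq2 2036 and 1738 of 33475, and no filter 1137 and 456 of 33475. Limma on FPKM called 2426 and 216 of 11165, and protein-coding genes alone 640 and 199 of 14873. The robust fit called 408 and 120 of 18619, and the Ugt1a sum 424 and 131 of 18613. Thresholds chosen after seeing the data gave 0 at 0.04, 13 at 0.06 and 25 at 0.1. Of all 18619 genes they gave 1 higher and 0 lower at 0.04, 878 and 361 at 0.06, and 1939 and 1129 at 0.1. With the replicate block the counts were 15 for CCl4 against oil (1 higher, 14 lower), 13 for the libraries labelled Sting knockout against oil, and 0 for TAA, where the numbers do not pair the livers (correlations 0.0885, −0.000955 and 0.00462). Over all genes the block called 1182 higher and 1045 lower of 11511, 1109 and 956 of 11511, and 2 and 0 of 18619. The block changed no count from 0 in the other comparisons. No called member that was followed through the alternatives changed sign. For the libraries labelled Sting knockout against oil, 9 of the 13 called members were followed. Sult5a1, Ugt2a3, Ugt2b35 and Gstt3 were not. Some members that were not called did change sign under some alternative: Gstm1 for CCl4 against oil, Gsta1 for TAA, 6 of 13 named members for the libraries labelled Sting knockout against wild type and 5 of 13 for MCC950. The cause of these moves was not tested.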
